A study of Mus musculus with 16 samples.

Results

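Cadherins and protocadherins were followed across RNA-seq libraries of KPC1199 cells, a mouse pancreatic ductal adenocarcinoma line derived from a genetically engineered mouse with a Pdx-cre driver, after CRISPR targeting of Sin3b. The members were all genes whose symbol is Cdh followed by a number, without Cdh1 and Cdh2, and all genes whose symbol begins with Pcdh. This gave 91 genes of the 55405 features with an Ensembl identifier shared by both count tables, with 21 Cdh genes, 12 non-clustered protocadherins, 14 Pcdha, 22 Pcdhb and 22 Pcdhg genes. The 16 libraries came from 2 experiments. The first compared sgCtrL with Sin3Bsg1 cells that had no treatment, with 2 libraries per group. The second held sgCtrL and Sin3Bsg1 cells with or without interferon gamma (IFNγ) at 10 ng/mL for 24 h, with 3 libraries per group. All groups share the same parental line with its engineered alleles, and the cells carried a lentiviral Cas9 vector selected with puromycin. The control columns of the tables carry the name lacZ and were read as sgCtrL. The sources do not say whether the cells were pools or single clones. The study's methods speak in general of repeated independent experiments but do not say that these libraries were separate cultures, so p-values measure the spread between these libraries, which may be technical.

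Cadherins are calcium-dependent adhesion proteins that join neighbouring cells through their extracellular domains, and classical members are tied to actin through catenins. Protocadherins are the largest cadherin subgroup and are best known from the nervous system. The Pcdha, Pcdhb and Pcdhg genes lie side by side in clusters, where each cell chooses promoters of variable exons, and the Pcdha and Pcdhg transcripts splice their own first exon to constant exons shared by the whole cluster. Sin3b encodes a scaffold protein of histone deacetylase complexes, and IFNγ is a cytokine released by activated lymphocytes.

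The cells were made with 1 guide, whose sequence is shown because every genotype comparison rests on it. The guide matched Sin3b at chr8:73449982-73450001 on the plus strand of GRCm39, in coding sequence of exon 1 of 19 in the canonical transcript of GENCODE release M39. The capitals are the PAM read from the genome.
Sin3Bsg1: tggctcccgctggggtcgttCGG
Sin3b RNA was lower in Sin3Bsg1 cells in all comparisons of genotype, at a log2 fold change of -1.28 ± 0.0494 (SE) untreated, -1.24 ± 0.0522 without IFNγ and -1.22 ± 0.0525 with IFNγ, with edgeR adjusted p of 1.19e-11, 5.1e-10 and 5.22e-10. Sin3b transcript remained in the targeted libraries, at 35.3 ± 1.71 CPM (counts scaled to the size of the library; SD, n = 2) untreated and 39.1 ± 0.412 CPM (n = 3) without IFNγ. Total counts per library were 29683181 to 32311721 in the untreated experiment and 18128055 to 27056903 in the IFNγ experiment. The tables were normalized and fitted apart, and levels set side by side between the experiments were not tested.

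Of the 91 members, 42 passed the filter on low counts in untreated cells and 39 in the IFNγ experiment, and 36 were tested in both. The 46 members tested in neither reached at most 12 counts in any library, and 9 of them had 0 counts in all libraries. They comprised 15 Cdh genes, among them Cdh5 of endothelial cells, Cdh4, Cdh6 and Cdh10, all 14 Pcdha genes, 11 Pcdhb genes, 2 Pcdhg genes (Pcdhga7 and Pcdhga8), and Pcdh8, Pcdh12, Pcdh15 and Pcdh20. In TPM, which scales counts for gene length as well as library size, Cdh17 stood first in sgCtrL cells without IFNγ, at 180.0 ± 1.23 (SD, n = 3). Cdh17 encodes liver-intestine cadherin, an adhesion protein of gut epithelium that works without catenins. Pcdhgc3 at 31.0 ± 1.91 TPM and Pcdh17 at 28.9 ± 1.02 TPM followed and lay within about their spread of each other. Pcdhgb2 at 15.5 ± 1.11 TPM and Pcdhgb6 at 14.0 ± 1.22 TPM came next and likewise did not separate. Pcdhgc4 at 6.77 ± 0.564 TPM and Pcdhgb7 at 6.61 ± 1.11 TPM did not separate either. Below them, Pcdh18 at 4.74 ± 0.687 TPM, Pcdhga10 at 4.40 ± 0.612 TPM, Cdh24 at 4.39 ± 0.655 TPM and Pcdh19 at 3.91 ± 0.0207 TPM lay close together. All other members had lower means, with no clear break below Pcdh19.

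**Figure D1:**
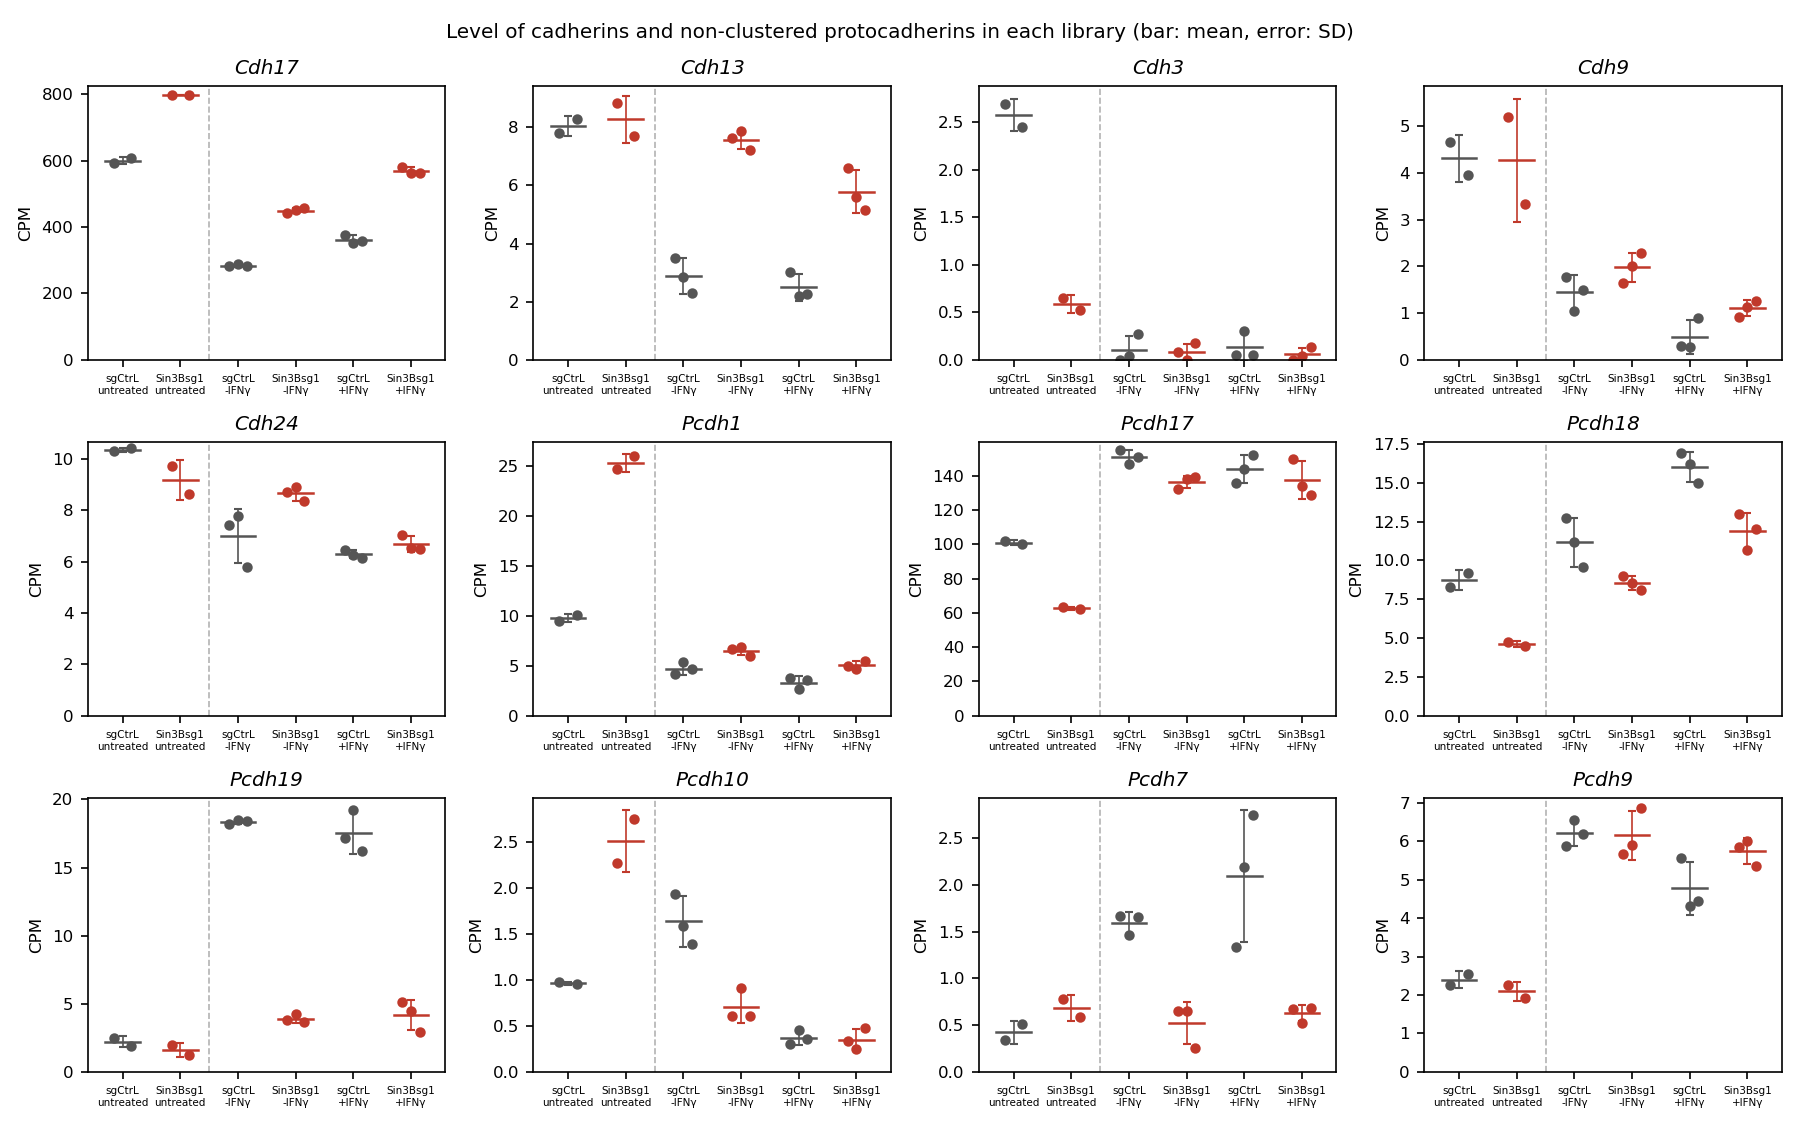
CPM (y axis, linear, from 0) of 12 members in each of the 16 libraries (points), with the mean as a bar and the SD as error, by group (x axis). The dashed line parts the experiments, which were normalized apart. Cdh17 was higher in Sin3Bsg1 than in sgCtrL cells in every pair of groups, whereas Pcdh19 and Pcdh7 were lower in Sin3Bsg1 cells of the IFNγ experiment.

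Without any treatment, Sin3Bsg1 cells held more Cdh17, Pcdh1 and Pcdh10 RNA and less Cdh3, Pcdh17, Pcdh18, Pcdhb20, Pcdhgb6, Pcdhgc3 and Pcdhgc4 RNA than sgCtrL cells. These were 10 of 42 tested members at an edgeR adjusted p under 0.05, 3 higher and 7 lower, whereas 31.1% of all 14589 genes tested passed, 15.1% as higher and 16% as lower. The share of members that passed was 23.8%, below that background. The median log2 fold change of the 42 was -0.19 against 0.0024 over all genes tested.

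Cdh17 read 592 and 607 CPM in sgCtrL and 799 and 798 CPM in Sin3Bsg1 libraries. The Sin3Bsg1 libraries lay above both controls, 1.33-fold higher (log2 0.41 ± 0.019 SE, edgeR adjusted p = 9.84e-11). Cdh3, which encodes P-cadherin, a classical cadherin of basal epithelia, read 2.69 and 2.45 CPM in sgCtrL and 0.654 and 0.518 CPM in Sin3Bsg1 cells. It fell 4.35-fold (log2 -2.12 ± 0.313, edgeR adjusted p = 6.21e-05) from a low level of 72 to 80 counts per control library. Cdh13, which encodes T-cadherin, a membrane-anchored cadherin without a cytoplasmic tail, read 7.80 and 8.30 against 8.84 and 7.71 CPM. Its groups overlapped (log2 0.04 ± 0.124, edgeR adjusted p = 0.848). Cdh9 (log2 -0.01 ± 0.207) and Cdh11 (log2 0.43 ± 0.513), both type II classical cadherins, had overlapping groups, and Cdh24, another type II cadherin, did not pass at log2 -0.18 ± 0.111 although its groups lay apart.

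Among the non-clustered protocadherins, Pcdh1, known from airway epithelium, read 9.51 and 10.1 CPM in sgCtrL and 24.7 and 26.0 CPM in Sin3Bsg1 cells. The groups were far apart, 2.58-fold higher in Sin3Bsg1 cells (log2 1.37 ± 0.0864, edgeR adjusted p = 4.11e-09). Pcdh17, a delta-2 protocadherin that recruits the actin-regulating WAVE complex, read 102 and 100.0 CPM in sgCtrL against 63.4 and 62.0 CPM in Sin3Bsg1 cells. It fell 1.61-fold (log2 -0.69 ± 0.0376, edgeR adjusted p = 7.72e-10) with no overlap. Pcdh18, also of the delta-2 group, read 8.30 and 9.19 against 4.76 and 4.47 CPM, a 1.89-fold fall (log2 -0.92 ± 0.137, edgeR adjusted p = 6.89e-05). Pcdh10, a delta-2 protocadherin often silenced by methylation in tumours, read 0.974 and 0.953 against 2.27 and 2.75 CPM. Its 2 Sin3Bsg1 libraries were both above the controls, 2.6-fold (log2 1.38 ± 0.285, edgeR adjusted p = 0.00139). Pcdh19, Pcdh7, Pcdh9 and Pcdh11x did not pass, with log2 fold changes of -0.49 ± 0.293, 0.68 ± 0.477, -0.20 ± 0.239 and -1.05 ± 0.493.

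In the IFNγ experiment without IFNγ, Pcdh19, Pcdh7, Pcdh10, Pcdh18 and Pcdhga3 were lower and Cdh13, Cdh17 and Pcdh1 higher in Sin3Bsg1 than in sgCtrL cells. In all, 8 of 39 tested members passed, 3 higher (Cdh13, Cdh17, Pcdh1) and 5 lower (Pcdh7, Pcdh10, Pcdh18, Pcdh19, Pcdhga3), whereas 17.2% of the 14913 genes tested passed, 7.89% as higher and 9.33% as lower. The members' share was 20.5%, near the background. With IFNγ, 6 of 39 passed, namely Cdh13, Cdh17 and Pcdh1 higher and Pcdh7, Pcdh18 and Pcdh19 lower, against 16.5% of all genes, 8.62% as higher and 7.9% as lower, and the members' share was 15.4%. These comparisons share no library with each other, but both come from the same fit.

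Pcdh19, an X-linked delta-2 protocadherin in which mutations cause a form of epilepsy, read 18.2, 18.5 and 18.4 CPM in sgCtrL and 3.77, 4.26 and 3.66 CPM in Sin3Bsg1 cells without IFNγ. With IFNγ it read 17.2, 19.2 and 16.2 CPM in sgCtrL and 5.10, 4.48 and 2.92 CPM in Sin3Bsg1 cells. All control libraries lay far above all targeted libraries in both states. The falls were 4.72-fold (log2 -2.24 ± 0.142, edgeR adjusted p = 2.63e-08) and 4.2-fold (log2 -2.07 ± 0.141, edgeR adjusted p = 6.02e-08). Pcdh7, a delta-1 protocadherin, read 1.67, 1.46 and 1.66 CPM in sgCtrL and 0.647, 0.653 and 0.258 CPM in Sin3Bsg1 cells without IFNγ, a 3.03-fold fall (log2 -1.60 ± 0.363, edgeR adjusted p = 0.00576). With IFNγ the values were 1.34, 2.19 and 2.75 against 0.668, 0.525 and 0.687 CPM, a 3.34-fold fall (log2 -1.74 ± 0.345, edgeR adjusted p = 0.00226). The groups did not overlap in either state, at 6 to 61 counts per library.

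Cdh13 read 3.51, 2.84 and 2.30 CPM in sgCtrL and 7.65, 7.87 and 7.22 CPM in Sin3Bsg1 cells without IFNγ. It rose 2.63-fold (log2 1.40 ± 0.172, edgeR adjusted p = 2.87e-05), and 2.34-fold with IFNγ (log2 1.22 ± 0.175, edgeR adjusted p = 0.000133). No control library reached the lowest targeted library in either state. Cdh17 read 282, 289 and 281 CPM in sgCtrL and 442, 450.0 and 457 CPM in Sin3Bsg1 cells without IFNγ. It rose 1.58-fold (log2 0.66 ± 0.0409, edgeR adjusted p = 1.93e-08) and, with IFNγ, 1.57-fold (log2 0.65 ± 0.0408, edgeR adjusted p = 2.38e-08). Cdh9, a type II cadherin, and Cdh24 did not pass in either state. Cdh9 with IFNγ came to log2 1.17 ± 0.412 and an edgeR adjusted p of 0.065 in favour of Sin3Bsg1 cells, and passed with DESeq2 (0.0402) and with no filter on low counts (0.0279). Without the treated sgCtrL replicate 3 it came to log2 1.95 and passed (edgeR adjusted p = 0.00475).

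Pcdh18 read 12.7, 11.2 and 9.57 CPM in sgCtrL and 8.99, 8.53 and 8.08 CPM in Sin3Bsg1 cells without IFNγ. Its fall was 1.31-fold (log2 -0.39 ± 0.111, edgeR adjusted p = 0.0241), and 1.35-fold with IFNγ (log2 -0.43 ± 0.104, edgeR adjusted p = 0.00891). The first of these calls was lost without sgCtrL replicate 1 or 2 or Sin3Bsg1 replicate 2 or 3 (edgeR adjusted p up to 0.128), and the second without the treated Sin3Bsg1 replicate 2 (0.0533). Pcdh1 read 4.15, 5.38 and 4.65 against 6.66, 6.92 and 6.02 CPM without IFNγ, higher in Sin3Bsg1 cells without overlap. That rise of log2 0.46 ± 0.152 sat at the threshold (edgeR adjusted p = 0.0497) and was lost with DESeq2 and in 6 of 12 fits that left out 1 library, while the rise with IFNγ was log2 0.62 ± 0.159 (edgeR adjusted p = 0.0135), lost without the treated sgCtrL replicate 2 or Sin3Bsg1 replicate 3, and at 0.0654 in a fit of only the 6 libraries compared. Pcdh10 read 1.94, 1.59 and 1.39 CPM in sgCtrL and 0.609, 0.914 and 0.602 CPM in Sin3Bsg1 cells without IFNγ, a 2.31-fold fall (log2 -1.21 ± 0.329, edgeR adjusted p = 0.0181). That call was lost, at an edgeR adjusted p of up to 0.0886, without sgCtrL replicate 1 or 2 or Sin3Bsg1 replicate 1 or 3. With IFNγ, Pcdh10 was at 0.242 to 0.472 CPM in both genotypes, and its groups overlapped. Pcdh17 and Pcdh9 did not pass in either state, Pcdh17 at log2 -0.15 ± 0.0571 and -0.06 ± 0.0570.

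**Figure D2:**
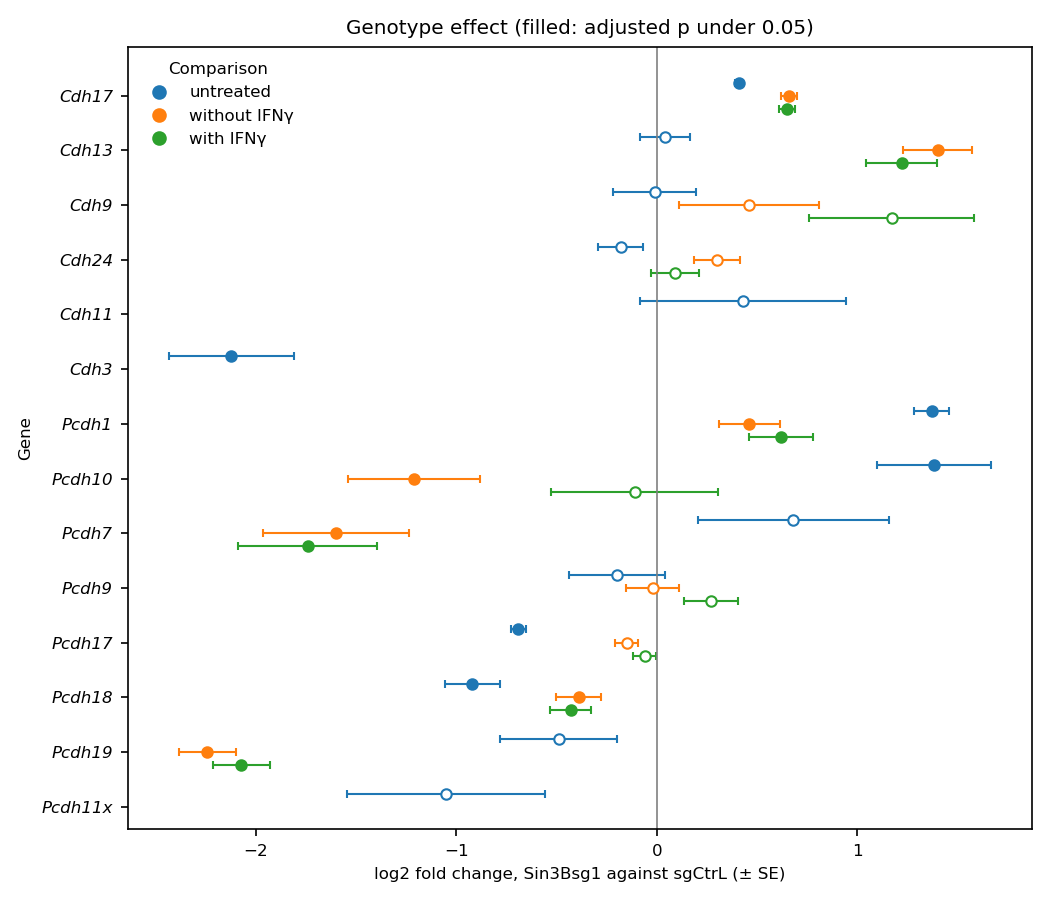
log2 fold change of Sin3Bsg1 against sgCtrL cells (x axis, points, with the SE as error) for the tested Cdh and non-clustered Pcdh genes (y axis), for untreated cells and, from the other experiment, for cells without and with IFNγ. Filled points passed an adjusted p of 0.05. Cdh17 lies right of 0 in all comparisons and Pcdh18 left of 0, while Pcdh10 lies at 1.38 untreated and at -1.21 without IFNγ.

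The experiments share no library, so the untreated genotype comparison and the one without IFNγ can be set side by side. Of 36 members tested in both, 4 passed in both, 3 of them in the same direction (Cdh17, Pcdh1 and Pcdh18) and 1 in opposite directions (Pcdh10). Over all 13848 genes tested in both, 1487 passed in both and 89.5% of those agreed in direction. Pcdh17 passed untreated at log2 -0.69 and not without IFNγ at -0.15, and Cdh13 and Pcdh19 passed the other way round. The control cells themselves differed in level. Pcdh19 was at 1.91 to 2.49 CPM in untreated sgCtrL libraries and at 18.2 to 18.5 CPM in sgCtrL libraries without IFNγ, and Cdh13 was at 7.80 to 8.30 CPM against 2.30 to 3.51 CPM. Cdh3 had 72 to 80 counts in the former and 0 to 5 counts in the latter. Experiment, sequencing depth and culture cannot be told apart here, and these differences were not tested.

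With IFNγ, 10 of 28 tested Pcdhb and Pcdhg genes, Cdh9 and Pcdh10 fell in sgCtrL cells, and Cdh17 and Pcdh18 rose in both genotypes. The other 18 Pcdhb and Pcdhg genes did not pass, among them the abundant Pcdhgc3, Pcdhgb2 and Pcdhgc4. In sgCtrL cells 16 of 39 tested members passed, 2 higher and 14 lower, whereas 30.2% of all genes tested passed in either direction, 15.7% as higher and 14.5% as lower. The median log2 fold change of the members was -0.50 against -0.0006 over all genes, and 34 of 39 lay below 0 against 50.1% of all genes. In Sin3Bsg1 cells 8 of 39 passed, 2 higher and 6 lower, against 28.4% of all genes in either direction, 16.1% as higher and 12.3% as lower. Their median was -0.27 against 0.0052 over all genes, and 28 of 39 lay below 0. Of the 39 members, 20 were Pcdhg genes, which share exons, so their values may not be independent. The counts below 0 are a description. The IFNγ comparisons use the same libraries as the genotype comparisons of this experiment.

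Cdh17 rose from 281 to 289 CPM to 377, 353 and 357 CPM in sgCtrL cells (log2 0.35 ± 0.0409, edgeR adjusted p = 7.02e-06). In Sin3Bsg1 cells it rose from 442 to 457 CPM to 582, 563 and 562 CPM (log2 0.34 ± 0.0406, edgeR adjusted p = 8.6e-06). Neither pair of groups overlapped. Pcdh18 rose to 16.9, 16.2 and 15 CPM in sgCtrL cells (log2 0.52 ± 0.106, edgeR adjusted p = 0.00148) and to 13, 10.7 and 12 CPM in Sin3Bsg1 cells (log2 0.48 ± 0.109, edgeR adjusted p = 0.00348). Pcdh18 thus was higher with IFNγ and lower with Sin3Bsg1 in every comparison of this experiment.

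Pcdh10 fell with IFNγ in sgCtrL cells to 0.298, 0.453 and 0.360 CPM, 4.32-fold (log2 -2.11 ± 0.359, edgeR adjusted p = 0.000319). In Sin3Bsg1 cells, where it started lower, it read 0.334, 0.242 and 0.472 CPM and did not pass (log2 -1.01 ± 0.381, edgeR adjusted p = 0.0601). Cdh9 read 1.78, 1.04 and 1.5 CPM without and 0.298, 0.264 and 0.901 CPM with IFNγ in sgCtrL cells, a 2.93-fold fall (log2 -1.55 ± 0.408, edgeR adjusted p = 0.00904). Pcdh1 (log2 -0.52 ± 0.163, edgeR adjusted p = 0.0234) and Pcdh9, a delta-1 protocadherin (log2 -0.39 ± 0.136, edgeR adjusted p = 0.042), also fell in sgCtrL cells, and Cdh24 fell in Sin3Bsg1 cells (log2 -0.37 ± 0.115, edgeR adjusted p = 0.0231). The call of Pcdh9 was lost with DESeq2, and leaving out 1 library ended the calls of Pcdh1, Pcdh9 and Cdh24 in 2, 7 and 4 of 12 fits. Cdh13, Pcdh7, Pcdh17 and Pcdh19 did not pass with IFNγ in either genotype, Pcdh19 at log2 -0.07 ± 0.122 and 0.10 ± 0.163.

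Whether the IFNγ response of the members differed between genotypes was tested by the interaction term. None of 39 members passed with edgeR or with DESeq2, and 1 had an unadjusted p under 0.05, Pcdhga1 at 0.00967 with a log2 difference of 1.26 ± 0.427. Over all genes, 0.114% passed. Pcdh10 had a log2 difference of 1.10 ± 0.534 and Cdh9 one of 0.71 ± 0.539, with edgeR adjusted p of 0.912 and 0.984. The larger number of members that passed with IFNγ in sgCtrL than in Sin3Bsg1 cells is therefore not shown to be a difference between the genotypes.

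All Pcdhb genes that passed in any IFNγ comparison were lower with IFNγ. These genes encode single-exon protocadherins of the beta cluster. In sgCtrL cells Pcdhb17, Pcdhb19, Pcdhb20 and Pcdhb22 fell, 4 of 8 tested, and in Sin3Bsg1 cells Pcdhb18, Pcdhb19 and Pcdhb22 fell, 3 of 8, where 14.5% and 12.3% of all genes passed as lower. Pcdhb22 read 2.21, 2.96 and 3.32 CPM without and 1.94, 1.36 and 1.49 CPM with IFNγ in sgCtrL cells (log2 -0.84 ± 0.219, edgeR adjusted p = 0.00865). In Sin3Bsg1 cells it read 3.81, 3.35 and 3.91 against 2.51, 1.90 and 2.28 CPM (log2 -0.73 ± 0.203, edgeR adjusted p = 0.013). The groups lay apart in both genotypes, although the call in Sin3Bsg1 cells was lost without the treated replicate 2 (edgeR adjusted p = 0.0548). Pcdhb20 fell in sgCtrL cells from 1.24, 1.29 and 1.18 to 0.646, 0.227 and 0.541 CPM (log2 -1.42 ± 0.379, edgeR adjusted p = 0.00988). Pcdhb19 fell at log2 -0.80 ± 0.262 in sgCtrL and -0.90 ± 0.262 in Sin3Bsg1 cells, Pcdhb17 fell at -0.83 ± 0.291 in sgCtrL cells with overlapping groups, and Pcdhb18 fell at -0.63 ± 0.190 in Sin3Bsg1 cells. The call of Pcdhb19 in Sin3Bsg1 cells was lost without replicate 2 of the libraries with IFNγ or replicate 3 of those without (edgeR adjusted p up to 0.071), and those of Pcdhb17 and Pcdhb19 in sgCtrL and Pcdhb18 in Sin3Bsg1 cells were each lost in 8, 4 and 4 of 12 fits that left out 1 library, whereas Pcdhb20 and Pcdhb22 in sgCtrL cells kept theirs.

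Summed over the 22 Pcdhb genes, sgCtrL libraries held 18.1, 17.6 and 15.7 CPM without and 9.30, 9.90 and 10.5 CPM with IFNγ. Sin3Bsg1 libraries held 17.6, 17.1 and 18.1 CPM without and 11.5, 12.6 and 11 CPM with IFNγ. The change with IFNγ was -42.3% and -33.3%, without overlap, and is given as a description. The mean Pcdhb sum of Sin3Bsg1 against sgCtrL cells differed by -15.9% untreated, 2.43% without IFNγ and 18.4% with IFNγ. By genotype 1 Pcdhb gene passed, Pcdhb20, which fell untreated from 1.11 and 1.19 to 0.560 and 0.421 CPM (log2 -1.22 ± 0.406, edgeR adjusted p = 0.0314). That call was lost with DESeq2 and on leaving out any 1 of the 4 libraries, and Pcdhb20 stood at log2 0.07 by genotype without IFNγ.

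**Figure D3:**
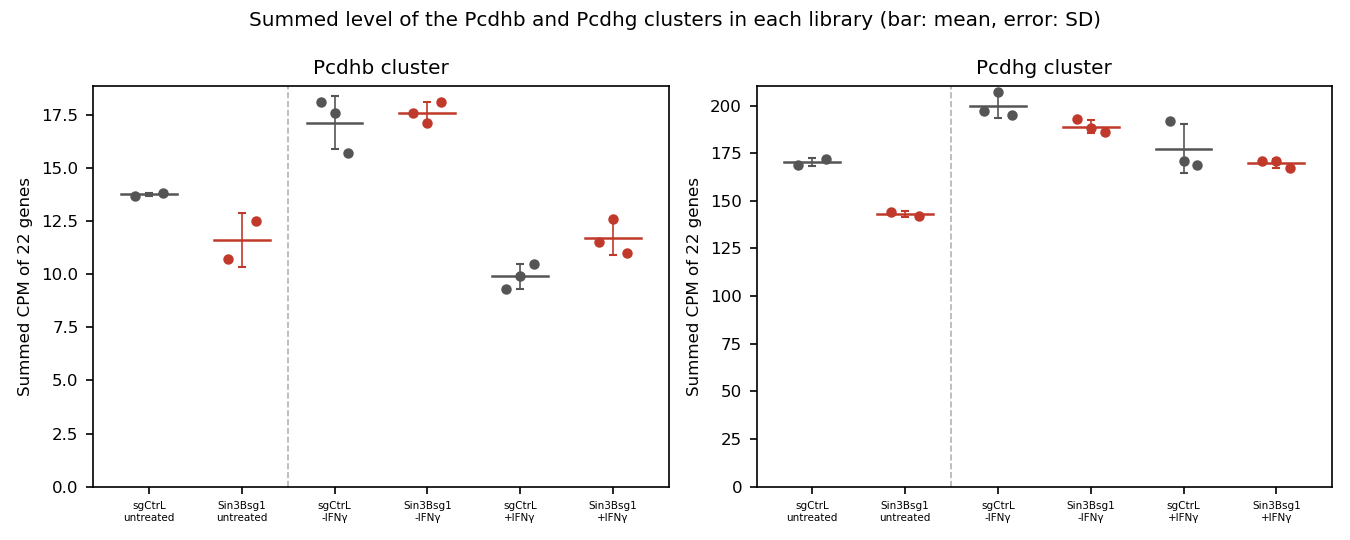
Summed CPM of the 22 Pcdhb genes (left) and the 22 Pcdhg genes (right) in each library (points), with the mean as a bar and the SD as error, by group (x axis). Pcdhb sums with IFNγ lie between 9.30 and 12.6 CPM, below all sums without IFNγ in the same experiment (15.7 to 18.1 CPM).

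The Pcdhg genes encode gamma protocadherins, whose C-type members Pcdhgc3, Pcdhgc4 and Pcdhgc5 are less subject to stochastic promoter choice than the A and B types. In the GENCODE gene models all 22 Pcdhg genes shared exon bases with another gene of the cluster, from 28.4% to 67.4% of a gene's exon length. Of the deposited Pcdhg values above 0, 96.2% in the IFNγ experiment and 96.6% in the untreated one were not whole numbers, against 0.49% and 5% of Pcdhb values. How reads of shared exons were divided between gene models is not given in the sources used here, so single Pcdhg values are uncertain. Pcdhgc3 held 33.2% of the cluster's CPM in sgCtrL cells without IFNγ, Pcdhgb2 16.5% and Pcdhgb6 15%.

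By genotype in the untreated experiment, 3 of 18 tested Pcdhg genes fell, a share of 16.7% beside the 16% of all genes that passed as lower. Pcdhgc3 read 55.7 and 53.5 against 43.8 and 41.9 CPM (log2 -0.35 ± 0.0493, edgeR adjusted p = 4.21e-05), and Pcdhgb6 read 28.8 and 29.4 against 22.5 and 23.1 CPM (log2 -0.35 ± 0.0686, edgeR adjusted p = 0.000831). Pcdhgc4 fell at log2 -0.29 ± 0.105 (edgeR adjusted p = 0.0476), a call lost with DESeq2 and on leaving out any library but Sin3Bsg1 replicate 1. Neither Pcdhgc3 nor Pcdhgb6 passed by genotype in the IFNγ experiment, where their log2 fold changes without IFNγ were -0.04 and 0.12. There Pcdhga3 alone of 20 tested passed without IFNγ (1.24, 1.34 and 0.535 against 0.495, 0.479 and 0.129 CPM, log2 -1.48 ± 0.458, edgeR adjusted p = 0.0349), a call lost in 8 of 12 fits that left out 1 library, and none passed with IFNγ. The mean Pcdhg sum of Sin3Bsg1 against sgCtrL cells differed by -16.0% untreated and -5.42% without IFNγ, both without overlap. The difference was -4.28% with IFNγ, where the groups overlapped. These sums are a description and were not tested.

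With IFNγ, 6 of 20 tested Pcdhg genes fell in sgCtrL cells (Pcdhga1, Pcdhga4, Pcdhga5, Pcdhga12, Pcdhgb6 and Pcdhgb8) and 2 fell in Sin3Bsg1 cells (Pcdhgb6 and Pcdhgb7). These shares of 30% and 10% stand beside 14.5% and 12.3% of all genes that passed as lower, so the second is near the background. Pcdhgb6 read 31.1, 32 and 26.9 CPM without and 24.0, 22.4 and 22.3 CPM with IFNγ in sgCtrL cells (log2 -0.39 ± 0.0832, edgeR adjusted p = 0.00202). In Sin3Bsg1 cells it read 35.3, 32.4 and 30.1 against 24.6, 21.0 and 23.4 CPM (log2 -0.50 ± 0.0814, edgeR adjusted p = 0.000189). Pcdhgb6 kept its calls in all 12 fits that left out 1 library in each genotype, and the other called Pcdhg genes lost theirs in 2 to 9 of them, Pcdhga1 without replicate 1 or 2 of sgCtrL without IFNγ (edgeR adjusted p up to 0.0689). The most abundant gene of the cluster, Pcdhgc3, did not pass in either genotype (log2 -0.05 and -0.09). Replicate 1 of sgCtrL with IFNγ was above replicates 2 and 3 for Pcdhgc3 (74.5 against 60.9 and 56.9 CPM), Pcdhgc4 (20.9 against 11.9 and 15.2 CPM) and Pcdhga10 (11.4 against 6.84 and 7.48 CPM). Without that library Pcdhgc3 passed in sgCtrL cells at log2 -0.18 (edgeR adjusted p = 0.0302). The cluster sum went from 195 to 207 CPM without to 169 to 192 CPM with IFNγ in sgCtrL cells, a change of -11.3%. In Sin3Bsg1 cells it went from 186 to 193 CPM to 167 to 171 CPM, a change of -10.2%.

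**Figure D4:**
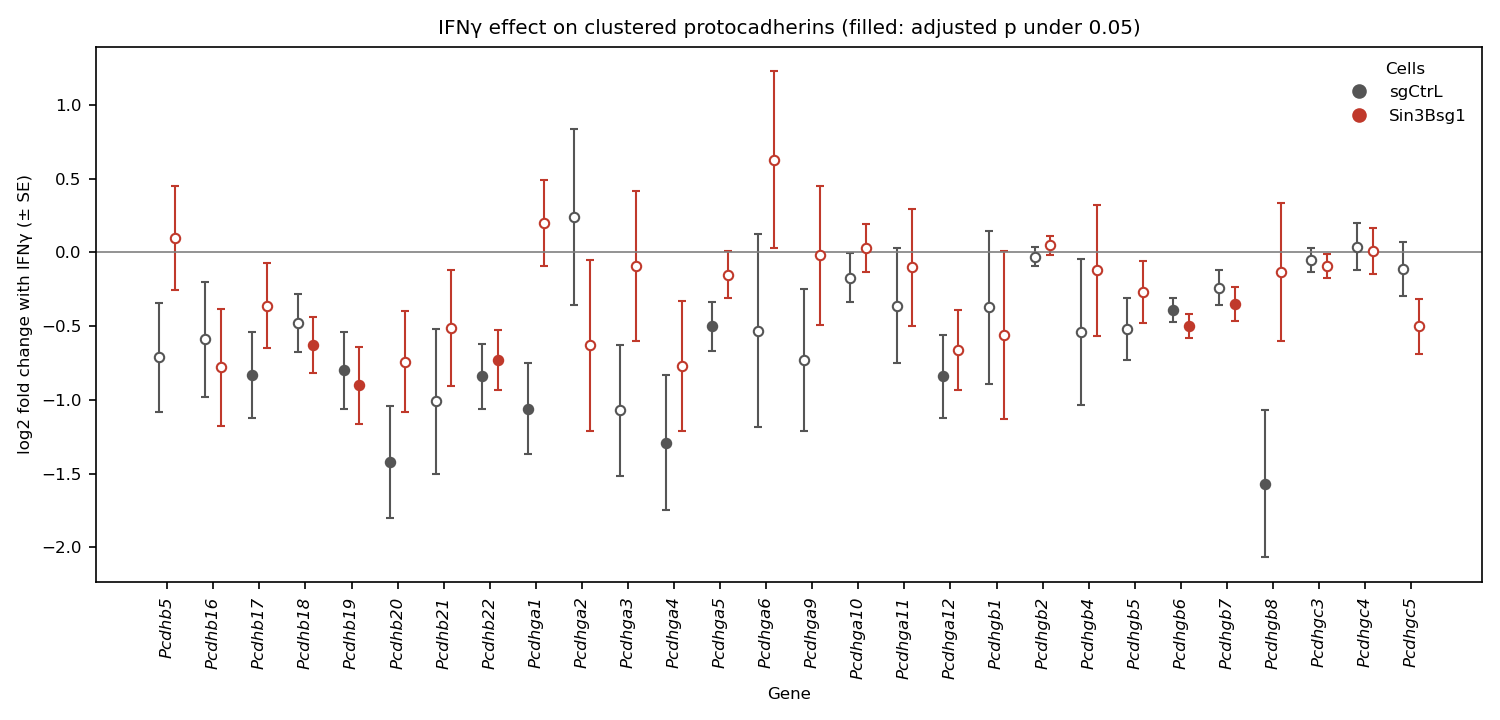
log2 fold change with IFNγ (y axis, points, with the SE as error) of the 28 tested Pcdhb and Pcdhg genes (x axis) in sgCtrL and in Sin3Bsg1 cells. Filled points passed an adjusted p of 0.05, all of them below 0, and 26 of 28 genes in sgCtrL and 22 of 28 in Sin3Bsg1 cells lie below 0. Pcdhg genes share exons, so their values may not be independent.

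The Pcdha genes, which encode alpha protocadherins of neurons, could not be tested. Their 14 genes summed to 0.0497 to 0.538 CPM per library, at 1 to 16 counts. Untreated, the sum was 0.510 and 0.538 CPM in sgCtrL and 0.249 and 0.356 CPM in Sin3Bsg1 libraries, without overlap, a difference of -42.2% that rests on 8 to 16 counts per library. In the IFNγ experiment the groups overlapped in all comparisons.

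Promoter windows of 8 tested members were matched by symbol in RefSeq (GRCm38.p6) and searched on both strands. The E-box CACGTG was in none of these windows, and it was in 7.15% of all promoters of that length. The motif TTTGAA was in the window of Pcdh7, and in 17.9% of all promoters. Cdh17, Cdh13 and Cdh3 were not among the 8.

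Partner genes of cadherins were taken from lists chosen with earlier results of these data known. Over all genes tested, 31.1% passed by genotype untreated, 15.1% as higher and 16% as lower. Without IFNγ 17.2% passed by genotype, 7.89% as higher and 9.33% as lower, and 30.2% passed with IFNγ in sgCtrL cells. The counts of the lists were not tested against these shares. Of 9 tested catenins, which link cadherins to actin, 4 rose and 1 fell by genotype untreated, and 1 rose and 2 fell without IFNγ, among them Ctnnd2 at log2 -1.20. With IFNγ 1 catenin rose and 4 fell in sgCtrL cells, among them Jup, plakoglobin, at log2 -0.94. All 4 tested desmosomal genes rose by genotype untreated, and none of 3 passed without IFNγ. Of 11 tested genes of the wider cadherin superfamily, 6 rose and 4 fell untreated and 5 rose and 2 fell without IFNγ. Cdh1, E-cadherin, rose at log2 1.08 and 0.92 in these comparisons, Celsr1 at 0.83 and 0.73, and Cdhr2 and Cdhr5, cadherins of the intestinal brush border, at 1.43 and 0.61 and at 0.61 and 1.14. Fat4 fell at log2 -1.71 and -0.66, and Clstn1 at -0.47 and -0.24. After IFNγ, 7 of these 11 superfamily genes fell and 0 rose in sgCtrL cells, at a median log2 of -0.37. In Sin3Bsg1 cells 5 fell and 0 rose, at a median of -0.23. Of all genes, 14.5% and 12.3% passed as lower with IFNγ. Falls with IFNγ were thus not confined to the members. Of 18 tested genes of cadherin turnover and signalling, 3 rose and 4 fell untreated and 3 rose and 1 fell without IFNγ, with the kinase Ptk2b at log2 0.52 and 0.68 and the kinase Fyn at -0.40 and -0.33. Of the WAVE complex, 1 of 9 fell untreated, and 2 rose and 1 fell of 8 without IFNγ. Of 17 regulators of clustered protocadherin genes, 1 rose and 5 fell untreated and 4 fell without IFNγ, among them Setdb1, a histone methyltransferase, at log2 -0.23 and -0.40, and Dnmt3a, a DNA methyltransferase, at -0.21 and -0.33.

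Markers of epithelial and of other cell types were summed in each library of this cell line. Fewer cells of a type and less RNA per cell cannot be told apart in bulk RNA. The 8 epithelial and ductal markers summed to 3090 to 6120 CPM, and 7 of 7 tested rose by genotype untreated and 3 of 7 without IFNγ. Of all genes, 15.1% and 7.89% passed as higher in these comparisons. After IFNγ, 1 of the 7 epithelial markers rose and 3 fell in sgCtrL cells, and 2 rose and 3 fell in Sin3Bsg1 cells. Sox9, Krt19 and Krt7 were the 3 that fell in both genotypes. Of all genes, 15.7% and 16.1% passed as higher and 14.5% and 12.3% as lower with IFNγ. The 8 fibroblast markers summed to 100 to 101 CPM in untreated sgCtrL and 30.5 to 33.5 CPM in untreated Sin3Bsg1 libraries, with Pdgfra (log2 -1.78) and Pdgfrb (-1.14) the 2 that passed of 4 tested, Postn at 0, and Lum at no more than 3 counts. In the IFNγ experiment the same sum was 280 to 286 CPM in sgCtrL and 233 to 246 CPM in Sin3Bsg1 libraries without IFNγ and 166 to 194 CPM with IFNγ. There Pdgfrb rose by genotype at log2 0.19 without and 0.27 with IFNγ, whereas Pdgfra fell at -0.26 and -0.21 and Dpt at -0.83 and -0.54. With IFNγ all 3 tested, Pdgfra, Pdgfrb and Dpt, fell in both genotypes, at log2 -1.20 to -0.45, in the same comparisons as the member falls. Of all genes, 14.5% in sgCtrL and 12.3% in Sin3Bsg1 cells passed as lower with IFNγ. The fibroblast marker sum was higher in the IFNγ experiment than in the untreated one, a difference that was not tested. In the IFNγ experiment 4 of the 8 markers, Dcn, Lum, Postn and Thy1, had no more than 3 counts, and the others made up the sum. The part of this sum in the member results was not tested. The 6 endothelial markers summed to at most 0.918 CPM, with Tie1 at 0. None was tested in the untreated experiment, and the 1 tested in the IFNγ experiment, Pecam1, was not called. The 6 leukocyte markers summed to 4.37 to 7.06 CPM, with Adgre1 and Cd3e at 0, and the 1 of them tested, Cd68, was not called. The 8 Schwann and neuronal markers summed to 16.5 to 33.7 CPM without and 81.7 to 93.5 CPM with IFNγ, and Sox10 stayed at no more than 3 counts. With IFNγ Tubb3, a tubulin, rose at log2 2.38 in sgCtrL and 3.08 in Sin3Bsg1 cells and passed the interaction at log2 0.69 (edgeR adjusted p = 0.0308), while Snap25, a synaptic protein gene, fell in Sin3Bsg1 cells at -0.56. By genotype Snap25 and Tubb3 fell untreated at log2 -0.58 and -0.53 and without IFNγ at -0.53 and -0.65, and Snap25 fell with IFNγ at -0.82. The part of these genes in the member results was not tested.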

How the data were processed

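KPC1199 RNA-seq was deposited as 2 tables of estimated counts per gene, not normalized by the authors. The study's methods name HISAT2 and unique reads counted with featureCounts on mm9, whereas the submitters' processing notes name fastp, HISAT2, StringTie, DESeq2 and mm39, so the build is unsettled. A column of deposited gene lengths was used for TPM, and 6 columns of group means were not used. In the untreated experiment, 324 assembled loci without a gene name, 0.615% to 0.677% of counts, were left out. Counts were rounded, and each table was fitted alone in edgeR 4.0.16 (R 4.3.3; TMM, filterByExpr, quasi-likelihood test, Benjamini-Hochberg over all genes tested, threshold 0.05), with every group of a table in the fit. CPM used TMM-scaled library sizes. The scripts were tested on simulated data. The members, gene lists and tests were chosen with earlier results of these data known. Named genes were all tested Cdh and non-clustered Pcdh genes, in each cluster those past the threshold in any comparison plus the 3 most abundant, Sin3b, and up to 10 partner genes past the threshold in the same direction in both genotype comparisons without IFNγ. The partner genes named beyond these, and members named for a high or an overlapping value, were chosen after their values were seen. The alternatives were DESeq2 1.42.0, RLE factors, no filter on low counts, at least 10 counts in every library, the replicate number as a block, each library left out and, in the IFNγ experiment, only the 6 libraries compared. Intervals and SE of counts do not cover culture differences beyond these libraries. The full genotype of the source mouse is not reported here.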

Additional observations from a re-analysis of the deposited data

Results flagged for a closer look

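In some members every Sin3Bsg1 library lay on one side of its controls in the untreated experiment and on the other side in the IFNγ experiment. The difference between the experiments was not tested, since their tables were fitted apart. Pcdh10 went from log2 1.38 untreated to -1.21 without IFNγ and passed in both. Pcdh7 went from 0.68, not passed, to -1.60 without and -1.74 with IFNγ, both passed. Cdh24 went from -0.18 to 0.30 without and 0.09 with IFNγ, and Pcdhga1 from -0.10 to 0.85 with IFNγ, none of which passed.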

How the results depend on the processing

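Of the 48 member calls, 26 held under every alternative tried for them. Over 765 recomputed values of called members none changed sign, and 107 lost significance. Of 1868 recomputed values of named members not called, 26 passed in the same direction, and other members were not followed singly. With at least 10 counts in every library, a filter that removes genes that fell, 5 members in place of 8 passed by genotype without IFNγ. On leaving out each library in turn, the number called ranged from 8 to 10 by genotype untreated, where the lone library of an arm is assumed to vary like the others, from 4 to 8 by genotype without IFNγ, from 5 to 8 with IFNγ, from 8 to 16 for IFNγ in sgCtrL, from 4 to 11 for IFNγ in Sin3Bsg1 cells, and was 0 throughout for the interaction. By genotype without IFNγ it was 4 without sgCtrL replicate 1 or Sin3Bsg1 replicate 3, and 5 without sgCtrL replicate 2 or Sin3Bsg1 replicates 1 or 2. For IFNγ in sgCtrL it was 10 and 8 without replicates 1 and 2 of sgCtrL without IFNγ, and for IFNγ in Sin3Bsg1 it was 4 without replicate 2 with IFNγ and 5 without replicate 2 without IFNγ. With the replicate block, 10, 7, 6, 15, 9 and 0 members passed in the order above. The numbers did not clearly pair the libraries. Deviations of libraries with the same number correlated at 0.0202 untreated, where other pairs stood at -0.0202. All 4 untreated libraries correlated best with their own number. With 2 libraries per group, however, deviations from the group mean mirror each other. The correlations between groups then have 1 size with either sign, so this is 1 outcome and a weak check. In the IFNγ experiment same-number pairs ran from -0.0292 to 0.146, 2 of 18 above 0.1, and other pairs from -0.162 to 0.0847. There none of 12 libraries correlated best with its own number in every other group. Pcdh1 by genotype without IFNγ, and Pcdhb17 and Pcdh9 for IFNγ in sgCtrL, lost their call under the block. The 22 calls that did not hold under every alternative, those just named among them, were each lost on leaving out at least 1 library.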
